A study of Rattus norvegicus with 10 samples.

Results

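In purified rat round spermatids, 44 protein-coding genes changed level sharply from one young library to the next. They were chosen by their spread: a mean of at least 5 FPKM over the 10 libraries and a standard deviation of log2(FPKM + 1) of at least 1 over the 5 young libraries. FPKM is the number of sequenced fragments of a gene, scaled to its length and to the library. Of 7125 protein-coding genes with that mean, the 44 were 0.618%, and the files held 32545 genes in all, of which 22293 were protein-coding. Because the young values chose these genes, their young levels are given below as a description with no test. Only 2 of the 44 were listed at 0 in a library, and 25 fell below 2 FPKM in at least 1 young library.

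The libraries came from wild-type Brown Norway rats of 4 to 6 months (young, 5 libraries) and 18 to 20 months (aged, 5 libraries). Both groups were kept with free food and water, and in both the cells were primary round spermatids collected by STA-PUT, which separates testis cells by how fast they sediment. The labels do not say whether each library came from its own rat, so p-values measure the spread between these libraries, which may be technical. Such a fraction is enriched for a cell type and not a clone, and in bulk RNA fewer cells of a type and less RNA per cell cannot be told apart.

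Round spermatids are the haploid cells that leave meiosis and build the acrosome, the tail and the condensed nucleus of the sperm. They transcribe large amounts of sperm-specific message alongside the housekeeping genes for ribosomes, mitochondria and the proteasome. The genome also carries many extra copies of housekeeping genes that annotations list as separate loci.

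Depth was even, at 14488222 to 17401744 fragments per young library and 15992576 to 18203223 per aged library. Markers of round spermatids, 14 of 14 measured and none listed at 0, summed to 25397 to 40669 FPKM in the young and 25351 to 32647 FPKM in the aged libraries. Of the germ cells, spermatocyte markers summed to 326 to 355 FPKM in the young and 299 to 346 FPKM in the aged libraries, and spermatogonial markers to 73.5 to 88.6 and 73.4 to 87.5 FPKM. Markers of somatic testis cells reached higher sums in the aged libraries, although none of their genes passed the test between the ages: the 3 tested Leydig cell markers summed to 4.25 to 7.30 FPKM in the young and 9.76 to 115 FPKM in the aged libraries, and the 7 tested Sertoli cell markers to 29.9 to 39.3 and 35.5 to 141 FPKM. The 10 tested stromal markers summed to 56.9 to 86.1 and 88.8 to 219 FPKM, and the 9 tested macrophage markers to 15.4 to 27.4 and 20.0 to 99.3 FPKM. By log2 difference, 3 of 3 Leydig, 6 of 7 Sertoli, 10 of 10 stromal and 8 of 9 macrophage markers were higher with age. Of all tested genes, 5902 of 12985 were. The sizes were uneven: Insl3 averaged 3.31 FPKM in the young and 29.7 FPKM in the aged libraries, but Lhcgr 1.74 and 1.85 FPKM. Among Sertoli cell markers Clu averaged 15.8 and 29.5 FPKM, but Wt1 1.87 and 1.95 FPKM. The macrophage marker Adgre1 was lower with age (7.16 and 5.80 FPKM). The part of somatic cells in the levels below was not tested. In each library between 15 and 22 of the 44 genes stood in the upper part of their own range, and no library held most of the high values.

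**Figure D1:**
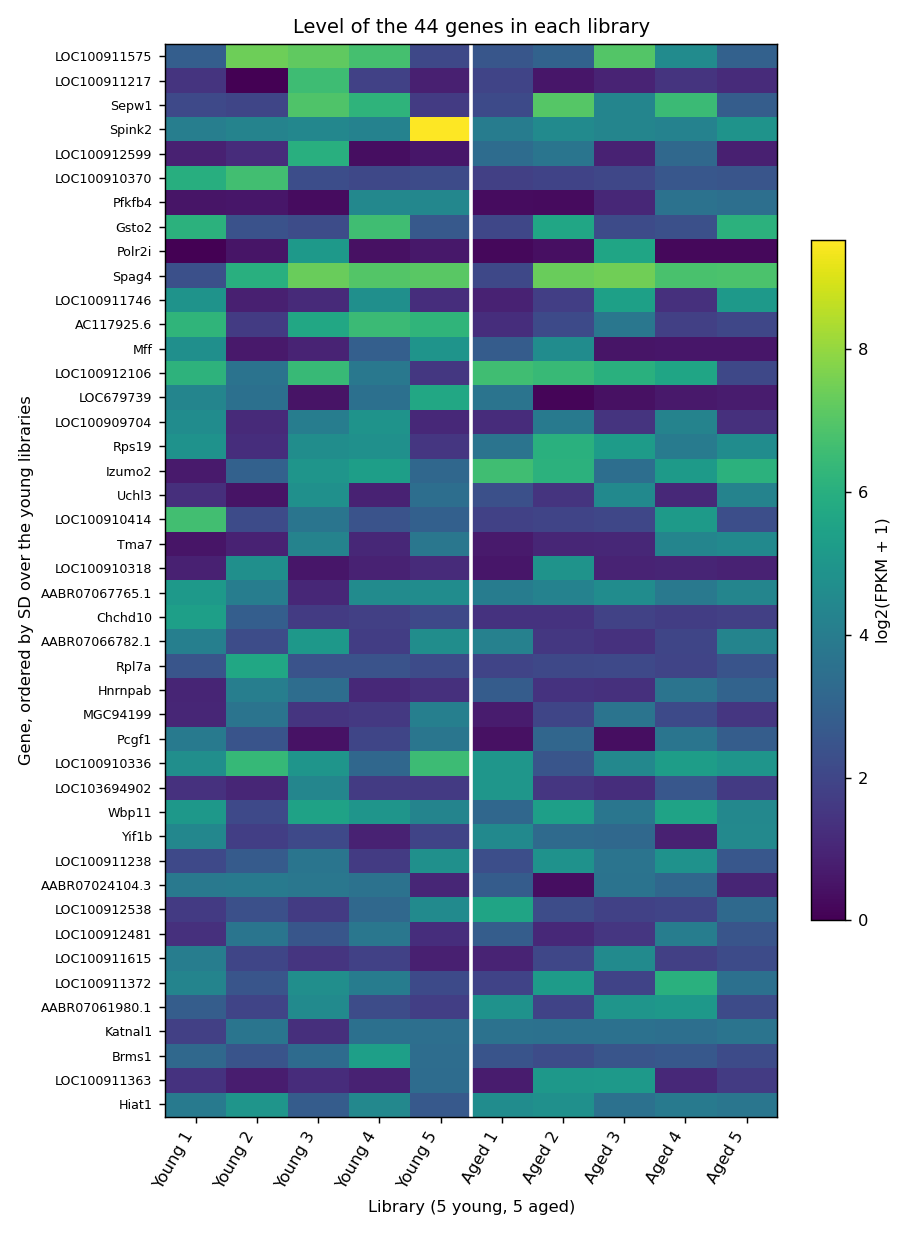
Level of each of the 44 genes (rows, ordered by their spread over the young libraries) in the 5 young and 5 aged libraries (columns), as log2(FPKM + 1). Bright cells are scattered over the columns, with 15 to 22 genes in the upper part of their range in every library.

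Among the members with a known role in the sperm, Spag4 encodes a SUN-domain protein of the nuclear envelope that helps join the sperm head to the tail, and lies on chromosome 3 from 152143811 to 152148029 in the files' coordinates, whose build was not stated in the labels. Its level was 3.99, 63.2, 163, 124 and 136 FPKM in young replicates 1 to 5 and 3.23, 161, 175, 111 and 113 FPKM in aged replicates 1 to 5. Replicate 1 of each age was far below all others, and the remaining libraries of the groups overlapped. Spink2, on chromosome 14 from 33247274 to 33253913, encodes a protease inhibitor of the acrosome that restrains acrosin. It stood at 15.98, 18.4, 20.1 and 17.7 FPKM in young replicates 1 to 4, at 737 FPKM in young replicate 5, and at 15.0, 22.7, 19.2, 17.5 and 28.8 FPKM in the aged libraries. A single library set its young spread, and the aged libraries lay close to the other 4 young ones.

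Izumo2 belongs to the family of IZUMO1, the sperm protein that binds the egg. It measured 0.625, 6.86, 30.4, 39.6 and 8.11 FPKM in the young and 95.5, 69.4, 10.002, 35.6 and 68.1 FPKM in the aged libraries. The aged values were mostly higher, but aged replicates 3 and 4 lay within the young range. Pfkfb4, on chromosome 8 from 118392773 to 118414603, encodes the testis form of the enzyme that makes and removes the sugar phosphate activating glycolysis. Its values were 0.465, 0.496, 0.239, 21.0 and 20.1 FPKM in the young and 0.235, 0.213, 1.11, 11.01 and 10.02 FPKM in the aged libraries. Replicates 4 and 5 were high in both ages. LOC100909704, listed as like a coiled-coil protein of the flagellum, reached 23.8, 15.6 and 28.5 FPKM in young replicates 1, 3 and 4 and 13.9 and 18.3 FPKM in aged replicates 2 and 4, against 1.12 to 1.69 FPKM in the other 5 libraries.

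Ribosome and translation genes made up another set of members. LOC100911575, listed as like the stalk protein P2 of the large ribosomal subunit, had the widest young spread (SD 2.59 log2 units), with 6.13, 171, 148, 106 and 3.17 FPKM in the young and 4.80, 7.01, 124, 23.1 and 6.71 FPKM in the aged libraries. LOC100910370, listed as like the large-subunit protein L8, measured 62.6 and 98.8 FPKM in young replicates 1 and 2 and stayed between 2.51 and 5.00 FPKM in all 8 others. Rpl7a, of the large subunit, was high in 1 young library (50.1 FPKM in replicate 2) and stood at 2.83 to 4.68 FPKM elsewhere. These rows thus differ in which libraries were high. Tma7, a small protein linked to translation, was high in young replicates 3 and 5 (18.4 and 12.8 FPKM) and aged replicates 4 and 5 (19.2 and 22.2 FPKM), with at most 1.09 FPKM in the rest. LOC100911372, listed as like the small-subunit protein S6, ranged from 3.41 to 25.3 FPKM in the young and 2.76 to 64.4 FPKM in the aged libraries.

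In LOC100911217, listed as like adipogenin, young replicate 3 reached 94.1 FPKM, while the remaining 9 libraries held 0 to 2.88 FPKM. Sepw1, a small selenoprotein with a thioredoxin-like fold on chromosome 1 from 77533148 to 77535681, gave 3.33, 2.98, 119, 73.1 and 2.18 FPKM in the young and 3.43, 127, 19.4, 89.6 and 5.98 FPKM in the aged libraries. Gsto2, on chromosome 1 from 271229036 to 271243517, encodes an omega-class glutathione transferase that reduces oxidised vitamin C. It measured 67.8, 4.34, 3.62, 95.2 and 5.39 FPKM in the young and 3.11, 48.3, 3.50, 4.02 and 68.0 FPKM in the aged libraries. The high libraries of Gsto2 and Sepw1 were young replicates 1 and 4 and young replicates 3 and 4, so they shared young replicate 4 alone within that group. Mff, which recruits the fission machinery to mitochondria, reached 25.8 and 29.8 FPKM in young replicates 1 and 5 and 23.9 FPKM in aged replicate 2. It stood at 6.41 FPKM in young replicate 4, 5.89 FPKM in aged replicate 1 and at most 0.940 FPKM elsewhere. Another row with the symbol Mff reached 13.0 FPKM in young replicate 5 and 37.9 FPKM in aged replicate 5, with 2.26 to 4.68 FPKM in the others. Chchd10, of the mitochondrial intermembrane space, reached 40.8 FPKM in young replicate 1, with 1.63 to 6.18 FPKM everywhere else.

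Polr2i, on chromosome 1 from 91041214 to 91042230, encodes a subunit of RNA polymerase II. It was at 0, 0.451, 33.3, 0.331 and 0.514 FPKM in the young and 0.142, 0.323, 47.3, 0.157 and 0.163 FPKM in the aged libraries. Replicate 3 of each age was the single high one. Of the members in protein turnover and trafficking, Uchl3, a deubiquitinase, ranged from 0.410 to 26.3 FPKM in the young and 1.12 to 21.7 FPKM in the aged libraries. LOC100912106, listed as like the apoptosis-linked protein PDCD5, ranged from 1.91 to 84.5 FPKM and 3.15 to 95.6 FPKM. LOC100910318, listed as like a subunit of the TRAPP trafficking complex, was high only in replicate 2 of each age, at 26.1 and 28.4 FPKM, and at most 1.23 FPKM elsewhere. Of the ciliary and centriolar genes, LOC100911746, listed as like the B9 domain protein B9D1, reached 29.1 and 25.7 FPKM in young replicates 1 and 4 and 41.3 and 34.9 FPKM in aged replicates 3 and 5, and at most 2.41 FPKM in the others. AC117925.6, which has no description in the files, stood at 75.1, 2.18, 51.8, 88.3 and 74.4 FPKM in the young and 1.36, 3.42, 12.6, 2.51 and 3.05 FPKM in the aged libraries. LOC100910414, listed as like the saccharopine dehydrogenase-like oxidoreductase, reached 98.2 FPKM in young replicate 1 and 35.7 FPKM in aged replicate 4. It stood at 2.59 to 12.02 FPKM elsewhere. AABR07067765.1, without a description, was low in young replicate 3 alone (1.10 FPKM against 13.4 to 33.4 FPKM), and AABR07066782.1, an uncharacterised protein, ranged from 2.29 to 33.1 FPKM in the young and 1.58 to 18.8 FPKM in the aged libraries.

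Rps19, LOC100910336, LOC100912599 and LOC679739 are given beside their second rows. The members not yet named had a young SD from 1.01 to 1.46 log2 units. They include Hnrnpab and Wbp11, which bind or process RNA, LOC100912481, like the RNA-binding protein EWS, and Pcgf1, of a polycomb complex. Further members act in protein turnover and transport, namely LOC103694902 (UBE2B), LOC100911238 (like the proteasome maturation protein) and Yif1b of the Golgi. Others are LOC100912538 (like centrin-3), Katnal1 (a microtubule-severing subunit), Brms1, LOC100911615 (like the lipase PNPLA2), LOC100911363 (like the calpain small subunit), Hiat1 (a transporter-like protein), MGC94199 and 2 rows without a description, AABR07024104.3 and AABR07061980.1. Katnal1 was low in young replicates 1 and 3 (2.53 and 1.46 FPKM), at 10.3 to 11.97 FPKM in the other young and at 10.1 to 11.7 FPKM in the aged libraries. LOC103694902, whose product UBE2B is a ubiquitin-conjugating enzyme needed for sperm formation, was high in young replicate 3 (19.96 FPKM) and aged replicate 1 (31.1 FPKM). The centrin-3-like row peaked in young replicate 5 (22.6 FPKM) and aged replicate 1 (46.6 FPKM). LOC100911363 spread further in the aged libraries than in the young: aged replicates 2 and 3 held 32.5 and 34.9 FPKM, and no young library exceeded 9.33 FPKM. Pcgf1 ranged from 0.383 to 14.1 FPKM in the young and 0.276 to 12.1 FPKM in the aged libraries, with the highest values in young replicates 1 and 5 and aged replicate 4. Just inside the limit of 1 lay Hiat1 (SD 1.01) and LOC100911363 (1.06), and just outside it LOC100911295 (0.965) and AABR07024058.3 (0.984).

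The high libraries differed from member to member. Over all 44 genes the difference between the highest and lowest young library had a median of 3.74 log2 units. When each gene's range over the 10 libraries was divided into equal parts of a lower, middle and upper section, 225 of 440 values (51.1%) fell in the lowest and 159 (36.1%) in the highest, with 56 (12.7%) in between. Each gene's own lowest and highest values set its range, so those values fall in the outer sections by design. The young values also chose the genes for their spread, and other genes were not counted, so the split is a description only. Taking a gene as high above the midpoint of its range, 15 members were high in 1 young library, 13 in 2, 9 in 3 and 7 in 4. Among the 44 there were 43 different patterns of high libraries, and LOC100909704 and LOC100911372 were the only pair with the same one. For 37 members a high library occurred in both ages, and for 7 in the young only. The highest library of a member held from 173 to 7291 fragments (median 711.5), and its lowest from 0 to 173 (median 24.5). The mean limit rested on few libraries for some: 11 members fell under a mean of 5 FPKM once their highest library was left out, and 2 reached 5 FPKM in every library.

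The aged libraries, whose spread the rule did not use, also varied at most of these genes. An SD of at least 1 over the aged libraries was found in 33 of 44 members (75%), beside 0.758% of all 7125 genes and 21 of the other 7081 (0.297%). The median aged SD was 1.44 log2 units in the members and 0.103 in the others. Polr2i had the largest aged SD of all 7125 genes (2.39). Some member rows stayed level in the aged libraries: 7 members had an aged SD under 0.5, among them Katnal1 (0.07), Brms1 (0.20), Rpl7a (0.23), Spink2 (0.35) and LOC100910370 (0.36), and LOC100911217 stood just above at 0.51. Another row of the same symbol did vary for Katnal1 (aged SD 1.04, 8.77 FPKM in aged replicate 2) and Rpl7a (1.13, 24.5 FPKM in aged replicate 2). Other rows of the symbol or product of Brms1 and LOC100910370 had an aged SD of at most 0.26. The mean in the rule included the aged values. With the mean taken over the young libraries alone, a choice made after seeing the data, 31 of 43 genes (72.1%) had an aged SD of at least 1, beside 10 of the other 7068 (0.141%). Leaving out 1 aged library at a time gave 27 to 34 members with that spread.

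**Figure D2:**
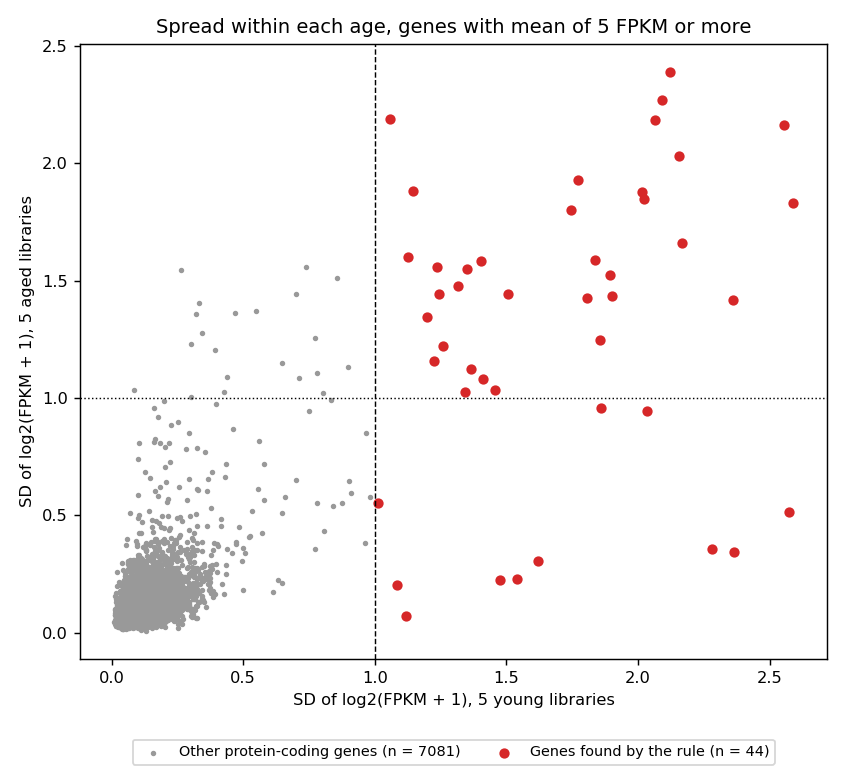
SD of log2(FPKM + 1) over the 5 young libraries (x axis) and over the 5 aged libraries (y axis) for the 7125 protein-coding genes whose mean reached 5 FPKM, with the 44 genes found by the rule in red. The dashed line is the limit of the rule, and 33 of the red points lie above the dotted line at an aged SD of 1.

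Relatives of 6 members were looked up in gene lists, leaving out the members themselves. By the rule, any protein-coding gene whose mean reached 5 FPKM and whose young SD reached 1 is itself a member, so the young spread of the others is a description only. Their median young SD was 0.11 to 0.20 log2 units per list, beside 0.108 over all 7125 genes. None of them passed between the ages: 0 of 16 tested nuclear envelope genes around Spag4, 0 of 15 protease inhibitors and acrosome genes around Spink2, 0 of 21 glycolysis genes around Pfkfb4, 0 of 10 RNA polymerase II subunits, 0 of 15 glutathione transferases and 0 of 14 selenoproteins. No gene passed among all 12985 tested either, so these counts do not set the lists apart. Sun1, a partner of the nuclear envelope bridge, averaged 42.1 ± 2.28 FPKM in the young and 42.6 ± 1.52 FPKM in the aged libraries (SD, n = 5), and Sun2, of the same family, 5.75 ± 1.01 and 5.67 ± 0.947 FPKM. Acr, the acrosomal protease that SPINK2 restrains, averaged 230 ± 7.84 and 248 ± 13.6 FPKM, and the related inhibitor gene Spink8 71.9 ± 7.27 and 71.8 ± 4.39 FPKM. Pfkm, the muscle-type phosphofructokinase, averaged 130 ± 6.25 and 128 ± 6.07 FPKM, and Pfkfb2, a sister of Pfkfb4, 7.30 ± 0.289 and 6.58 ± 0.435 FPKM. Of the largest polymerase subunits, Polr2a averaged 46.6 ± 2.62 and 43.9 ± 1.55 FPKM and Polr2b 13.8 ± 0.945 and 12.7 ± 1.16 FPKM. Gsto1, the sister of Gsto2, averaged 10.3 ± 1.24 and 11.2 ± 0.904 FPKM. Selk, another selenoprotein, averaged 29.5 ± 2.04 and 28.0 ± 1.98 FPKM. The widest young spreads in those lists were those of Sepp1 (SD 0.74), a secreted selenoprotein, and Gstm5 (0.56). Sepp1 averaged 20.2 ± 12.3 and 146.7 ± 175 FPKM and Gsta1 1.22 ± 0.510 and 10.1 ± 11.9 FPKM, each with a limma adjusted p = 0.319.

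No gene passed between aged and young libraries in limma's test with Benjamini-Hochberg adjustment (0 of 12985, 0%), and so 0 of the 44. At an unadjusted p under 0.05, 4 members (9.09%) stood beside 1544 of all 12985 genes (11.9%). With voom on the recovered fragments, 0 genes passed and 1531 had an unadjusted p under 0.05. The members differed between the ages by at least 2-fold in 14 of 44, beside 0.778% of all genes, but their standard errors were also larger, with a median of 0.84 log2 units against 0.091. Of the 44, 23 were higher and 21 lower in the aged libraries, with a median difference of 0.035 log2 units (all genes, -0.015). None had groups that did not overlap (2.6% of all genes).

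AC117925.6 differed by -3.08 log2 units (SE 0.85, limma adjusted p = 0.319), with young replicate 2 inside the aged range. Without young replicate 2 the difference was -3.98 and the adjusted p = 0.0277, so that library decided the call. Over all fits that left out 1 library its adjusted p ranged from 0.0277 to 0.520. Izumo2 differed by 2.06 (SE 0.85, limma adjusted p = 0.392), and LOC679739, the Ndufs6 gene of respiratory complex I, by -2.39 (SE 0.90, limma adjusted p = 0.374). Brms1, of a histone deacetylase complex, differed by -1.16 (SE 0.42, limma adjusted p = 0.363), with 40.8 FPKM in young replicate 4, 4.56 to 9.72 FPKM in the other young and 3.51 to 5.20 FPKM in the aged libraries. Their young values chose these genes, so these differences carry that choice with them.

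**Figure D3:**
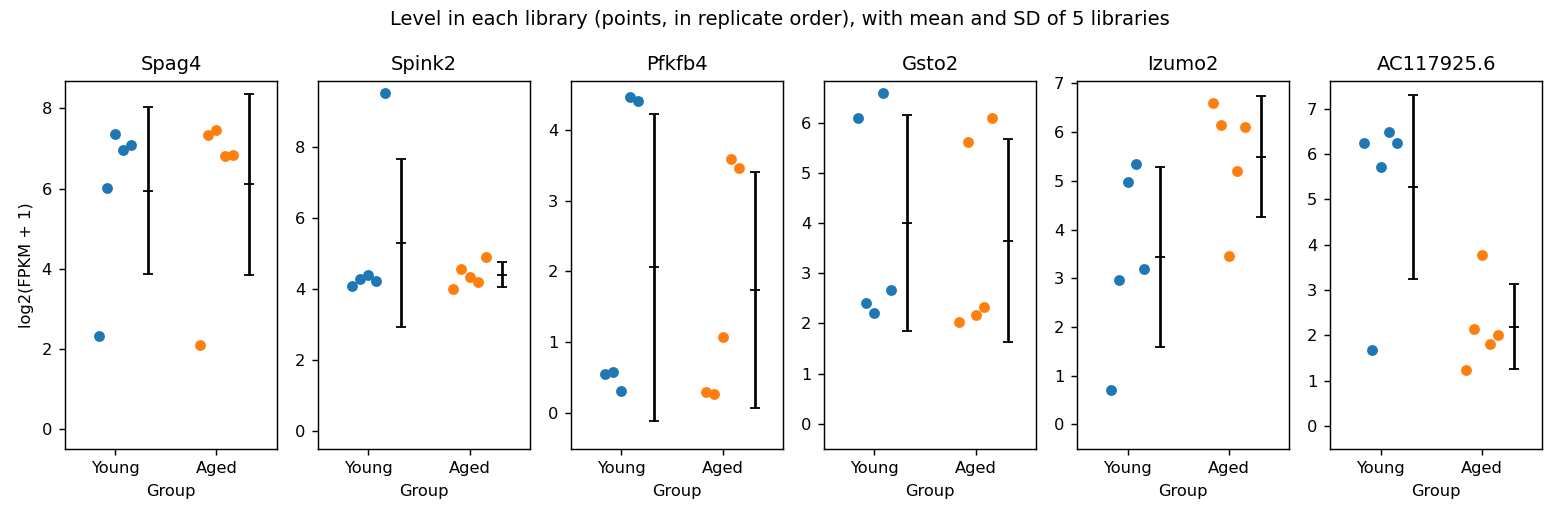
Level of 6 of the genes as log2(FPKM + 1) in each library (points, replicates 1 to 5 from left to right), with the mean and SD of the 5 young and 5 aged libraries (bars). Values fall into a high and a low set within an age for Spag4, Pfkfb4 and Gsto2, Spink2 has 1 high young library, and the groups overlap for all 6 genes.

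Several traits of the rows that the rule did not name were more frequent among the members than among all 7125 genes, though most were held by a minority of the 44. A symbol starting with LOC was carried by 18 of 44 members (40.9%), beside 5.02% of all 7125 genes. A description ending in "-like" was carried by 16 (36.4%, against 3.58%). The same symbol stood on another row of the files for 12 members (27.3%, against 1.54%). A symbol absent from the RefSeq table of the GRCr8 assembly was found for 24 members (54.5%, against 9.6%). Conversely, of the 358 rows with a LOC symbol 5.03% reached the young SD of the rule, and of the 110 with a repeated symbol 10.9%. Many rows were short, with 22 of 44 under 1000 bp (16.2% of all 7125) and a median gene length of 983 bp against 2033 bp in the other genes. FPKM is scaled to gene length, so length is not independent of the rule. Chromosome 1 held 14 members (31.8%, against 12.8%), and unplaced scaffolds 2 (4.55%, against 0.112%). Some of the members lay close together, such as LOC100911575 and LOC100911615 (4.11 kb apart), Polr2i and LOC100911363 (16.3 kb) and Gsto2 and LOC100909704 (48.9 kb). Neighbours of this kind were in the same state, high or low, in 6, 7 and 7 of the 10 libraries. Shared low libraries count here, and the number to expect for unrelated rows was not worked out.

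Several members had a second row for the same product. Product or symbol could be searched for 39 members, and 33 had at least 1 other row. For 16 of them another row reached 5 FPKM, while for 11 the other rows stayed under 1 FPKM in every library. The second row was steady in some cases: the other Gsto2 row averaged 46.8 FPKM over the 10 libraries and ranged from 41.4 to 51.4 FPKM, and the other Pfkfb4 row ranged from 9.05 to 18.9 FPKM. In other cases a second row was high where the member was low. Rps19, of the small ribosomal subunit, gave 28.0, 1.40, 24.4, 26.8 and 1.84 FPKM in the young and 11.9, 65.0, 36.5, 14.6 and 24.1 FPKM in the aged libraries. LOC100910336, listed as like S19, is itself a member and gave 25.1, 81.4, 30.6, 8.05 and 90.9 FPKM in the young and 31.5, 4.76, 20.7, 38.7 and 30.6 FPKM in the aged libraries. The libraries with the lowest Rps19, young replicates 2 and 5, were those with the highest LOC100910336, and Pearson's r on the log2 scale was -0.86 over the 10 libraries.

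The 2 rows for Ndufs6, both members, were also unlike. LOC100912599 gave 0.834, 1.33, 62.7, 0.294 and 0.507 FPKM in the young and 9.44, 12.03, 0.902, 8.38 and 0.769 FPKM in the aged libraries. LOC679739 gave 19.4, 10.4, 0.429, 10.4 and 50.8 FPKM in the young and 11.5, 0.0955, 0.361, 0.559 and 0.673 FPKM in the aged libraries. In each young library exactly 1 of the 2 rows was above 2 FPKM, whereas in aged replicate 1 both were and in aged replicates 3 and 5 neither was (r = -0.51 over 10 libraries). Uchl3 and RGD1561252, a row of the same product at 7.73 to 72.9 FPKM, had r = -0.82, and the Hiat1 rows r = -0.83. These pairs were picked for their opposite values. Of all 54 pairs of a member with another row of its product, 49 gave an r, of which 31 were negative and 18 positive (median -0.085). An r of -0.5 or lower was found in 10 pairs and of 0.5 or higher in 2, among them LOC100910336 with LOC100362339, another S19 row (0.80). Some of the other rows lay near 0 FPKM. In the 24 pairs whose other row had a mean of at least 1 FPKM, 17 were negative and 7 positive (median -0.22). Of those 24 pairs, 7 had an r of -0.5 or lower and 1 of 0.5 or higher. These correlations describe 10 libraries, and the rows in each pair share them.

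**Figure D4:**
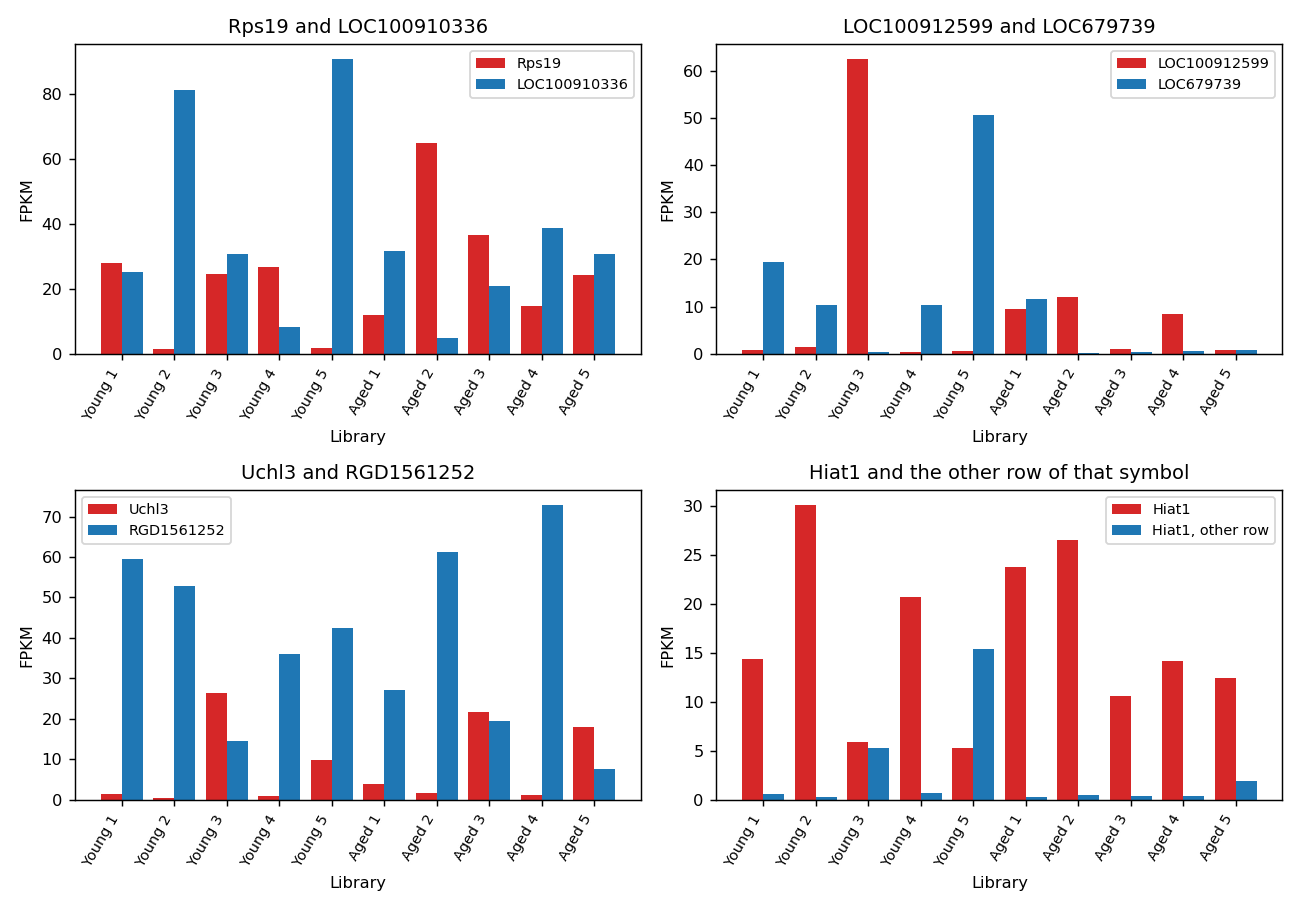
FPKM in each library for 4 pairs of rows with the same product: Rps19 and LOC100910336, LOC100912599 and LOC679739, Uchl3 and RGD1561252, and the 2 Hiat1 rows. Young replicates 2 and 5 have the lowest Rps19 and the highest LOC100910336 values, and the Ndufs6 rows (LOC100912599 and LOC679739) are both raised in aged replicate 1 and both under 1 FPKM in aged replicates 3 and 5.

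Adding the rows of the same product to each member brought the young SD under 1 (log2 scale, fragments scaled to the library) for 11 members, a sum chosen after seeing the data. A large steady row lowers a log SD by itself, and on the linear scale the young SD of the sum was below that of the member alone for 20 of 33 members and in both ages for 8. The sum over the S19 rows had a young SD of 13.2 library-scaled fragments, below that of LOC100910336 alone (17.1) but above that of Rps19 alone (7.18). Spag4, whose second row reached at most 0.377 FPKM, kept a log2 SD of 2.09 in the sum. Whether the rows share sequence, and how the counting handled fragments that fit more than 1 row, was not tested. Rows that overlap a member by position were found for 7 members, and adding them brought 1 under an SD of 1.

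By correlation over the 10 libraries, each member was set beside the most and the least similar of all other tested genes. The highest Pearson's r among all other tested genes had a median of 0.93 (0.85 to 0.994), for instance 0.994 for Spink2 with Rn60_1_2787.1 and 0.971 for Polr2i with AABR07024104.5. The lowest r ranged from -0.982 to -0.868. These are the extremes of 12985 rows over 10 points, and none of the rows found was a member or a row of the same product. Only 44 of the 12985 rows were members, so finding none of them does not show whether members moved together.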

How the data were processed

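RNA-seq libraries were made with a SMARTer mRNA kit from 1.3 ug of total RNA, per the labels' protocols. The deposited values are FPKM, 1 file per sample. Alignment and counting tools were HISAT2 2.0.5 and featureCounts 1.5.0-p3, per the submitters' processing notes, with settings, strand, genome build and annotation not given in the sources used here. Whole fragments recovered from the deposited FPKM values (100% whole within 0.01) gave the depths. The members and gene lists were chosen with earlier results of these data known.

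The genes were found on log2(FPKM + 1). Ages were compared by limma 3.58.1 (R 4.3.3; lmFit, eBayes with a trend; two-sided) on that scale, for the 12985 genes whose mean reached 1 FPKM, Benjamini-Hochberg adjusted at a limit of 0.05. The fit was checked on simulated data, with the SD of each gene capped under the young SD of 1 that the rule asked for. That check does not cover the members. All members were to be accounted for, with up to 25 named in order of young SD, beside rows most like them, 2 genes on each side of the limit, and the first 2 genes of each list (cell type marker lists are given as sums). The product patterns were chosen after seeing the data. RefSeq symbols came from the GRCr8 table, with no coordinates used. Tables were made with Python 3.11.15, pandas 2.3.3 and numpy 2.4.6.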

Additional observations from a re-analysis of the deposited data

Results flagged for a closer look

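Of the 88 sets of 5 libraries (44 genes in each age), 18 held 1 library that stood apart from the other 4 by more than Dixon's limit, 12 of them young and 6 aged. Chance alone marks about 1 in 20 sets of normally spread values, and whether these values spread so was not tested. The share among other genes was not counted, and the young sets were chosen for their spread, so the 18 are a description.

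In the young libraries the high ones were Spink2 in replicate 5 (737 FPKM, 15.98 to 20.1 FPKM in the others), LOC100911217 in replicate 3 (94.1 FPKM, at most 2.57 FPKM in the others), LOC100912599 in replicate 3 (62.7 FPKM) and Polr2i in replicate 3 (33.3 FPKM). Also high were LOC103694902 in replicate 3 (20.0 FPKM), Rpl7a in replicate 2 (50.1 FPKM), LOC100910318 in replicate 2 (26.1 FPKM) and LOC100911363 in replicate 5 (9.33 FPKM). The low ones were Spag4 in replicate 1 (3.99 FPKM), AC117925.6 in replicate 2 (2.18 FPKM), AABR07067765.1 in replicate 3 (1.10 FPKM) and AABR07024104.3 in replicate 5 (1.04 FPKM, 10.9 to 14.3 FPKM in the others).

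In the aged libraries, Polr2i was high in replicate 3 (47.3 FPKM, at most 0.323 FPKM in the others), LOC100910318 in replicate 2 (28.4 FPKM), LOC100910414 in replicate 4 (35.7 FPKM) and LOC679739 in replicate 1 (11.5 FPKM). Spag4 was low in replicate 1 (3.23 FPKM, 111 to 175 FPKM in the others) and LOC100912106 in replicate 5 (3.15 FPKM, 47.3 to 95.6 FPKM in the others). Spag4, Polr2i and LOC100910318 stood apart in both ages, each in libraries that carry the same replicate number.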

How the results depend on the processing

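Between the ages 0 genes and 0 members passed under every setting with all 10 libraries, the replicate block included (0 genes, with 1255 at an unadjusted p under 0.05). Same-numbered libraries did not deviate together (r from -0.1584 to 0.0541 over numbers 1 to 5), so the numbers were not taken as pairs. Leaving out 1 library gave 0 to 1 genes and 0 to 1 members: 1 gene, not a member, without young replicate 1, and AC117925.6 without young replicate 2. With the limit on the mean at 1 FPKM the rule found 72 genes, and 24 at 10 FPKM. It found 51 with a pseudocount of 0.1, 56 with TPM scaling and 38 to 44 without 1 young library, of which 35 to 42 were members. Adding overlapping rows brought 1 member under an SD of 1, or 0 on the same strand only, 9 with rows within 10 kb and 11 with rows of the same symbol or product. Of 308 member differences with all libraries, 2 turned direction, both under voom: Polr2i (0.053) and LOC100910318 (-0.10). Of 440 with 1 library left out, 55 turned, in 19 members, whose log2 differences (aged minus young) ranged as follows: AABR07067765.1 (-0.38 to 0.63), Gsto2 (-0.96 to 0.30), Hnrnpab (-0.037 to 0.74), LOC100910318 (-0.79 to 0.79), LOC100911217 (-1.45 to 0.19), LOC100911372 (-0.39 to 0.64), LOC100911615 (-0.29 to 0.77), LOC100911746 (-0.28 to 0.93), LOC100912481 (-0.53 to 0.20), LOC100912538 (-0.37 to 0.75), LOC103694902 (-0.28 to 0.97), MGC94199 (-0.77 to 0.082), Pcgf1 (-0.94 to 0.0039), Pfkfb4 (-0.78 to 0.28), Polr2i (-1.07 to 0.94), Spag4 (-0.75 to 1.16), Spink2 (-1.20 to 0.16), Tma7 (-0.33 to 0.77) and Wbp11 (-0.51 to 0.38). The other 25 members kept their direction throughout. The 5 libraries per age limit the precision, the counts behind low values are few, and the cause of these moves was not tested.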

Other observations

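Because 3 genes stood apart in same-numbered libraries of both ages, the states of all 44 genes were compared between libraries, counting a gene as high above the midpoint of its range. The 5 pairs of a young and an aged library with the same number had 22 to 30 genes in the same state (median 25), and the 20 pairs with different numbers 20 to 30 (median 24). Pairs within the young group, in which the genes were chosen, had 17 to 27 genes in the same state, and pairs within the aged group 23 to 31. This comparison was made after seeing the data and carries no test.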
